A study of Vitis vinifera with 16 samples.

Results

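A set of 130 transcripts was lower in Gaotai (GT) berries than in Changli (CL) berries whenever a GT sample was set beside the CL sample of the same stage and vintage. The set was chosen by its values. For each of the 8 pairs of samples, log2((GT + 1)/(CL + 1)) was taken from RPKM, the reads of a transcript scaled to its length and to the total of its library. A transcript was kept if its RPKM averaged 2 to under 1000 over the 16 samples, if all 8 log2 ratios were below 0 and if their mean was -0.5 or less. The tables held 23984 transcripts, 14382 of which lay in that range of RPKM, and the 130 members were 0.904% of these. The contrast of the regions chose the members, so it is described here and not tested.

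The berries were Muscat Blanc à Petits Grains, a white aromatic wine grape, and seeds were removed before RNA extraction. GT, in Gansu in the northwest of China, has more sunshine and less rain than CL, in Hebei in the east, and its vines were planted earlier. Each region was sampled at E-L31 (pea-sized green berries), E-L35 (veraison, the onset of ripening), E-L36 and E-L38 (harvest) in 2010 and 2011. Every stage and region thus had n = 2 samples, 1 per vintage, each of pooled berries. E-L35 and E-L38 samples have 2 libraries each and those of the other stages 1. The berries were collected in 2 repeats, and the sources used here do not say which repeat a library came from, so the spread between the libraries of a sample may be biological or technical. A single vineyard stood for each region, so region, vine age and vineyard cannot be told apart, and berries of a labelled stage need not have reached the same ripeness in both regions.

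Grape berries pass from a green phase of cell division and organic acid storage, through veraison, into a phase of softening and sugar and aroma storage. Many transcripts of green tissue decline over this course while transcripts of ripening rise. Bulk berry RNA mixes skin and flesh, so fewer cells of a type and less RNA per cell cannot be told apart.

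Sample totals ran from 3798921 to 22917077 counts in GT (median 11799070.5) and from 4698604 to 26627006 in CL (median 19320041). The GT sample of E-L31 in 2010 was the shallowest. No member carried a descriptive symbol in the reference gene table. A RefSeq gene of the Pinot Noir assembly ASM3070453v1 was found for 98 members, all under LOC symbols, and the study's lists described 4 members. The tissue could not be checked, because 0 of 11 ripening marker symbols matched a transcript. Members are therefore named by transcript.

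The mean of the 8 log2 ratios had a median of -0.71 over the members, which corresponds to a GT value at 61.0% of the CL value on the RPKM + 1 scale. It ran from -2.11 to -0.50, and 28 members had a mean ratio of -1 or less. Over all transcripts in the range the median was 0.02. As a frame for these counts, 1.77% of transcripts in the range (254) were below 0 in all 8 pairs and 1.82% (262) were above 0 in all 8 pairs. The mirror image of the rule, GT higher throughout with a mean ratio of at least 0.5, held 77 transcripts (0.535%). The members had a median of 13.7 RPKM and a median length of 1283.5 bases, against 14.0 RPKM and 1477 bases over the range.

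The depth of the difference varied between pairs. In the E-L31 pair of 2011 the median log2 ratio of the members was -1.34, whereas it was -0.60 in the E-L31 pair of 2010. At E-L35 the medians were -0.55 in 2010 and -0.71 in 2011, at E-L36 they were -0.70 and -0.71, and at E-L38 they were -0.50 and -0.49. The E-L31 pair of 2011 was the lowest of the 8 pairs for 65 members, and the E-L36 pairs were the lowest for 16 in 2010 and 26 in 2011. These counts were not made over all transcripts in the range, so nothing is read from them. Without the E-L31 pair of 2011 the median of the mean ratio over the other 7 pairs was -0.63, and 109 members still had a mean of -0.5 or less.

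**Figure D1:**
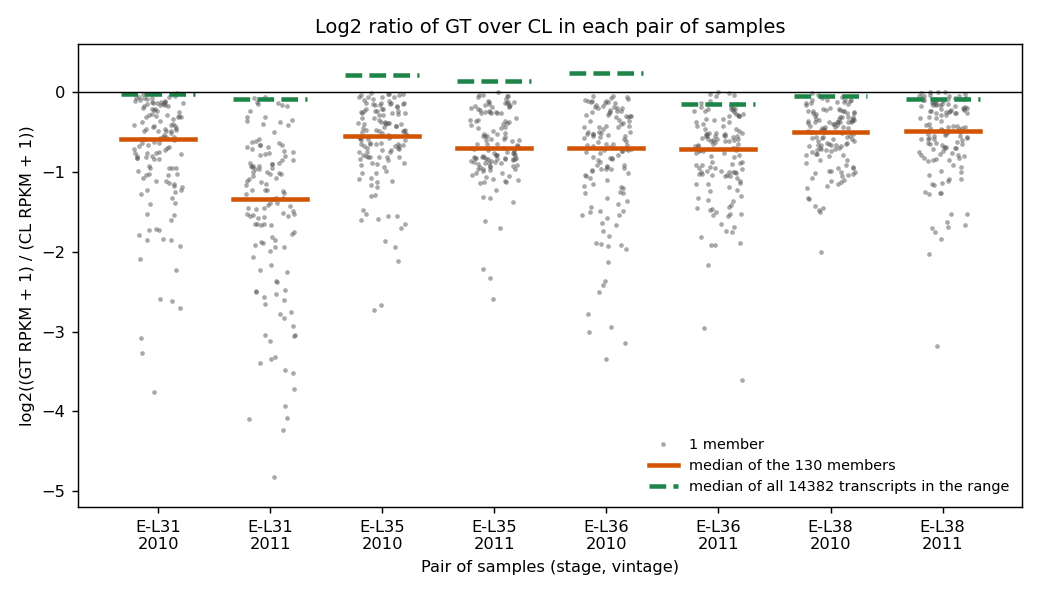
Log2 ratio of GT over CL, from RPKM + 1, of each of the 130 members (points) in the 8 pairs of samples, with the median of the members (solid lines) and of all 14382 transcripts in the range (dashed lines). All points lie below 0 because the rule required it, and the members' median is lowest in the E-L31 pair of 2011, at -1.34.

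Over all transcripts in the range the median of that pair was -0.09, inside the -0.15 to 0.24 of the other pairs. Those whose level fell over the stages (3749) had a median log2 ratio of -0.51 in the E-L31 pair of 2011, and from -0.36 to 0.21 in the other pairs. Those that rose (3798) had 0.23, and from -0.11 to 0.26 in the others. Members that fell over the stages (77) had -1.43 in 2011 and -0.47 in 2010 at this stage. Members with no called slope (49) had -1.22 and -0.93. The part of the lower ratios of falling transcripts in the members' values of this pair was not tested.

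Over the 16 samples, the median RPKM of the members was 17.6 and 10.9 in GT at E-L31 (2010 and 2011), against 27.2 and 30.6 in CL. At E-L35 it was 9.90 and 11.9 in GT against 15.8 and 18.9 in CL, and at E-L36 it was 4.88 and 7.12 in GT against 10.5 and 12.7 in CL. At E-L38 it was 6.62 and 4.91 in GT against 9.59 and 7.06 in CL. The medians of both regions were thus highest in green berries, apart from those of GT in 2011, where E-L35 stood above E-L31. The median of all transcripts in the range stayed between 10.5 and 17.1 RPKM in GT and between 9.70 and 17.1 RPKM in CL.

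**Figure D2:**
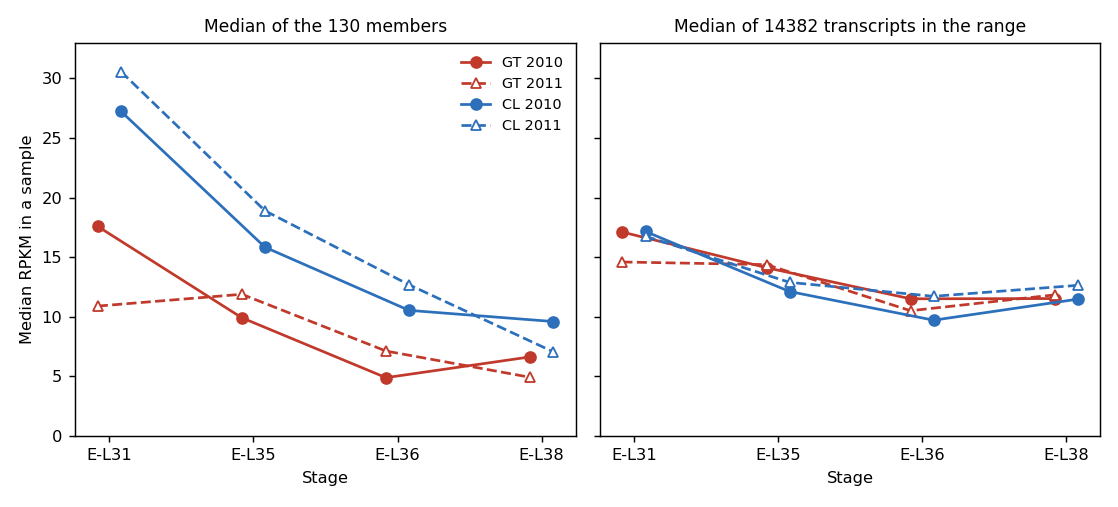
Median RPKM of the 130 members (left) and of the 14382 transcripts in the range (right) in each sample, by stage, for GT (red) and CL (blue) in 2010 (filled circles) and 2011 (open triangles). The members' medians in GT lie under those in CL of the same stage and vintage and are lower at E-L36 and E-L38 than at E-L31, while the medians of the range overlap.

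The 8 members with the most negative mean ratio carried no description in the sources used here, and 7 of them are given first. XM_002274791.2 (LOC100263324) had 3.32, 11.1 and 17.8 RPKM (lowest, median, highest of 8 samples) in GT and 15.3, 30.0 and 198 RPKM in CL, with a mean log2 ratio of -1.98. The regions overlapped only narrowly, since the GT sample of E-L35 in 2011 (17.8 RPKM) lay above the CL samples of E-L35 in 2010 (15.3 RPKM) and E-L38 in 2011 (16.6 RPKM). At E-L31 it had 13.4 and 6.05 RPKM in GT against 93.0 and 198 RPKM in CL, while at E-L35 the pairs were nearly level, with log2 ratios of -0.40 and -0.26. XM_002265766.2 (LOC100245618) had 11.6, 52.6 and 84.9 RPKM in GT and 25.9, 97.6 and 425 RPKM in CL, with a mean log2 ratio of -1.50. Its samples overlapped, since the CL sample of E-L38 in 2011 had 25.9 RPKM, less than most GT samples, but no pair of it was above -0.68. In the E-L38 pair of 2010 its GT libraries had 157.8 and 12.1 RPKM and its CL libraries 158.4 and 173.5 RPKM. The ratio of that pair thus rests on the lower GT library.

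XM_002285725.2 (LOC100264214) and XM_002285723.2 (LOC100242154) had mean log2 ratios of -1.88 and -1.45, and their genes are neighbours. The first had 5.13, 36.0 and 95.0 RPKM in GT and 49.0, 115 and 402 RPKM in CL. The second had 0.106, 1.85 and 6.99 RPKM in GT and 1.19, 2.96 and 53.1 RPKM in CL. In both, the E-L31 pairs were far apart (-3.08 and -3.71 for XM_002285725.2, -3.76 and -4.23 for XM_002285723.2). The E-L35 pairs were close (-0.09 and -0.23, and -0.25 and -0.17). After E-L35 they were less alike. For XM_002285725.2 the E-L38 pair of 2011 was again far apart (-3.18), and the E-L36 pair of 2010 nearly as far. In XM_002285723.2 these pairs were at -0.99 and -1.75. Only 42.3% and 47.2% of the reads of these transcripts were unique, so each value is uncertain.

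XM_002273860.1 (LOC100243043) had the lowest mean ratio of the set, -2.11, at low levels. Its GT samples had 0, 0.34 and 1.65 RPKM and its CL samples 0.0395, 6.27 and 13.5 RPKM. Every CL sample was above every GT sample except that of E-L38 in 2011, where 0 counts in GT stood beside 1 in CL. These values rest on 0 to 22 counts per sample in GT and 1 to 305 in CL, and 47.6% of the reads were unique.

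XM_002277916.2 (LOC100256656) and XM_003631716.1 (LOC100854026), 726 and 613 bases long, had mean log2 ratios of -1.43 and -1.41. GT samples of XM_002277916.2 had 2.20, 23.9 and 66.3 RPKM and its CL samples 6.04, 56.2 and 279 RPKM. GT samples of XM_003631716.1 had 4.62, 46.9 and 84.5 RPKM and its CL samples 15.5, 106 and 300 RPKM. Both overlapped between the regions, and both had their lowest ratios in the E-L31 pair of 2011 and the E-L36 pair of 2010.

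The member with the highest mean, XM_002280930.2 at 260 RPKM, stood above 1 RPKM in 1 pair only. GT berries of E-L31 in 2011 had 255 RPKM and CL berries 3902 RPKM, while each of the other 14 samples had between 0 and 0.71 RPKM. The CL sample alone held 93.8% of its summed RPKM, and its mean log2 ratio of -0.76 comes from a ratio of -3.93 in that pair and of -0.77 to -0.06 in the others. XM_002265561.1, singled out here after its values were seen, had a like course, with 44.0 RPKM in GT and 141 RPKM in CL at E-L31 in 2011 and no more than 2.43 RPKM in any other sample. Both E-L31 samples of 2011 had 1 library each.

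The other abundant members were spread over all samples. XM_002271651.2 (LOC100254533) had 79.0, 133 and 273 RPKM in GT and 97.1, 199 and 356 RPKM in CL, and its mean ratio of -0.50 lay at the limit. XM_002285272.2 had 40.2, 76.4 and 324 RPKM in GT and 44.5, 109 and 478 RPKM in CL (mean log2 ratio -0.52). XM_003632629.1 had 27.3, 84.5 and 136 RPKM in GT and 44.6, 145 and 249 RPKM in CL (-0.84). In XM_003632629.1 the widest pairs were those of E-L36 in 2010 (63.8 RPKM in GT, 226 RPKM in CL) and E-L31 in 2011 (94.4 and 249 RPKM), and the E-L35 pairs differed little. XM_002264259.2 (LOC100246457) had 19.7, 53.9 and 304 RPKM in GT and 26.7, 101 and 382 RPKM in CL (-0.97). In all 4 of them the ranges of the regions overlapped widely over the 8 samples.

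Some members kept a nearly even ratio. The SD of the 8 log2 ratios ran from 0.22 to 1.67 over the members with a median of 0.52, against a median of 0.39 over the range. It was smallest for XM_002268981.2, which had 7.59 and 5.49 RPKM in GT (E-L31), then 7.58 and 6.72 (E-L35), 4.93 and 4.40 (E-L36) and 5.50 and 4.18 (E-L38). Its CL samples had 12.3 and 11.0 RPKM (E-L31), then 9.33 and 9.12 (E-L35), 6.94 and 8.32 (E-L36) and 7.08 and 6.34 (E-L38). At each stage both GT samples lay under both CL samples, and the mean log2 ratio was -0.52. XM_002263141.2 (LOC100242823, 17.5% unique reads and thus uncertain), XM_002262882.1 (LOC100249242) and XM_002263635.1 (LOC100253524) followed, with mean log2 ratios of -0.59, -0.60 and -0.51 and SDs of 0.25, 0.28 and 0.28. In all, 19 members were at -0.25 or less in every pair, whereas 54 had a pair above -0.1 and 42 had a pair at -2 or less. No such counts were made over all transcripts in the range, so nothing is read from them.

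**Figure D3:**
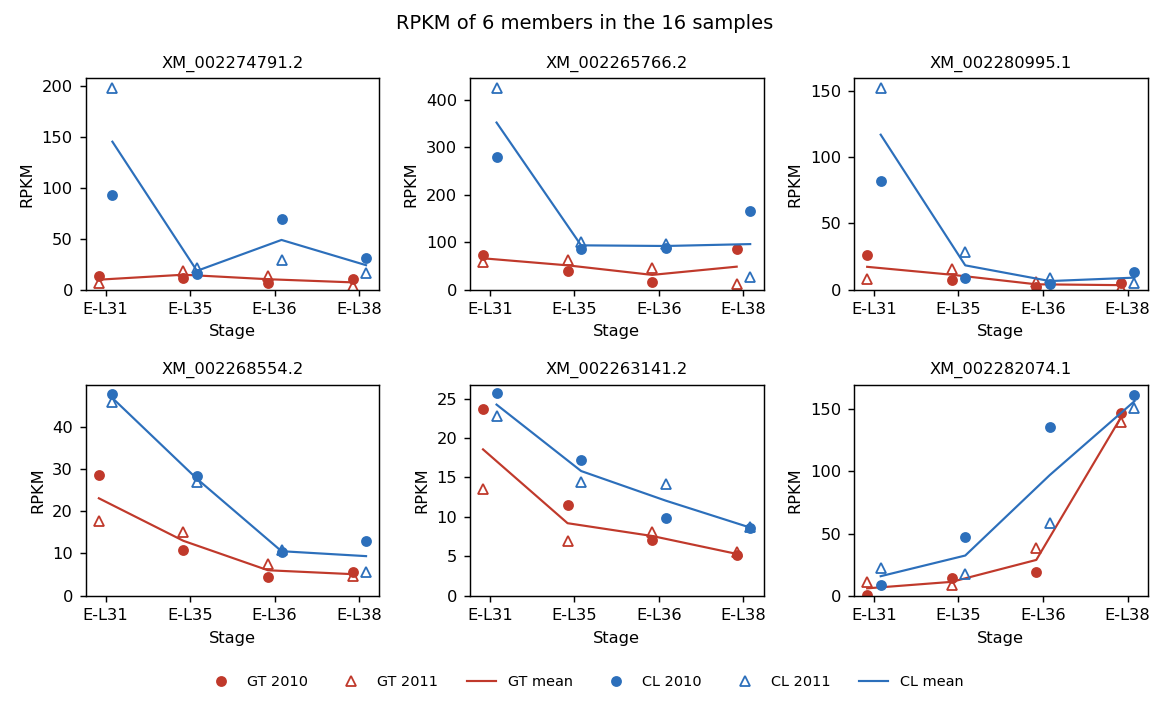
RPKM of 6 members by stage in GT (red) and CL (blue), in 2010 (filled circles) and 2011 (open triangles), with lines through the mean of the 2 vintages. XM_002274791.2, XM_002265766.2 and XM_002280995.1 differ most at E-L31, XM_002268554.2 and XM_002263141.2 differ at all stages, and XM_002282074.1 increases toward E-L38, where GT and CL meet.

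Of the 4 described members, 3 were annotated as transcription factors, proteins that bind DNA and set the rate at which other genes are transcribed. XM_002280995.1 (LOC100263619) was annotated as probable WRKY transcription factor 46-like. WRKY46 of Arabidopsis takes part in defence and drought responses. GT samples had 26.4 and 7.96 RPKM (E-L31), then 6.96 and 15.4 (E-L35), 2.16 and 5.75 (E-L36) and 5.28 and 1.36 (E-L38). CL samples had 82.0 and 152 RPKM (E-L31), then 8.42 and 28.1 (E-L35), 3.87 and 8.94 (E-L36) and 13.3 and 4.72 (E-L38). The regions were clearly apart at E-L31 and crossed between vintages at the other 3 stages, with a mean log2 ratio of -1.30.

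XM_002268554.2 (LOC100251326), annotated as transcription factor bHLH104-like, was among the more even members. In Arabidopsis bHLH104 acts in iron homeostasis. GT samples had 28.5 and 17.6 RPKM (E-L31), then 10.9 and 15.0 (E-L35), 4.53 and 7.51 (E-L36) and 5.63 and 4.57 (E-L38). CL samples had 47.8 and 45.8 RPKM (E-L31), then 28.4 and 27.0 (E-L35), 10.3 and 10.7 (E-L36) and 13.0 and 5.71 (E-L38). Both GT samples were under both CL samples at each of the 4 stages, and the mean log2 ratio was -0.88.

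XM_002272365.2 (LOC100245041), annotated as scarecrow-like protein 13, belongs to the GRAS family of transcriptional regulators, and its Arabidopsis namesake acts in red light signalling. It had 13.2, 26.7 and 43.8 RPKM in GT and 23.2, 42.0 and 151 RPKM in CL, with a mean log2 ratio of -0.85. The regions were far apart at E-L31 (34.1 and 24.6 RPKM in GT, 82.5 and 151 RPKM in CL) and nearly level at E-L38 in 2011 (22.6 and 23.2 RPKM). The fourth, XM_002272428.2 (LOC100252208), stood in the study's list of ethylene response transcripts as an uncharacterized protein. It had 16.1, 33.2 and 95.8 RPKM in GT and 41.9, 64.8 and 148 RPKM in CL, with a mean log2 ratio of -1.02. Its lowest pair was E-L36 in 2011, with 32.8 RPKM in GT against 127 RPKM in CL.

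The members found in the lists given by the study were counted, and these lists are too short for the counts to be read as a result. Of the 268 transcription factors that the study listed with correlations to selected genes, 185 were in the range of RPKM. Of these, 3 were members, beside 0.904% of all transcripts in the range, and the median mean ratio of the 185 was -0.14. Of 17 WRKY transcripts in the range 1 was a member, of 21 bHLH transcripts 1, and of 5 scarecrow-like transcripts 1. None of 35 ethylene response factor (ERF) transcripts in the range was below 0 in all 8 pairs, although their median mean ratio was -0.50. Of 18 ethylene transcripts 1 was a member (median 0.24). No member was found among 10 abscisic acid transcripts (0.19), 18 UDP-glycosyltransferases (0.12), 12 transcripts of the terpene backbone pathways (0.17) or 3 terpene synthases (0.07). Because the study chose most of these lists on the same samples, their ratios are not independent evidence.

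The order of the regions within a stage was compared over the 2 vintages. Both GT samples lay below both CL samples for 95 members in E-L31 berries (background 20.1% of the range), 99 in E-L35 (14.5%), 104 in E-L36 (14.6%) and 74 in E-L38 berries (28.6%). At all 4 stages this held for 35 members (background 0.389%). A single transcript of the range, the member XM_003633112.1, had all 8 GT samples below all 8 CL samples (background 0.00695%). Its GT samples had 3.91, 6.03 and 6.79 RPKM and its CL samples 7.21, 8.53 and 10.9 RPKM, so the groups were separated by a narrow gap, and its mean ratio of -0.50 was near the limit. These counts share the contrast that chose the members, and nothing is read from them.

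**Figure D4:**
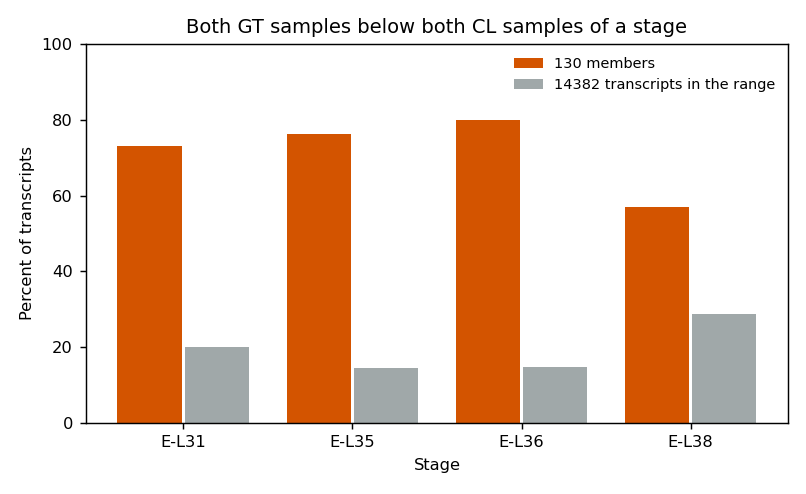
Percent of the 130 members (left bars) and of the 14382 transcripts in the range (right bars) with both GT samples below both CL samples, by stage. The share of members is 73.1% for E-L31, 76.2% for E-L35, 80.0% for E-L36 and 56.9% for E-L38.

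Samples of E-L35 and E-L38 show the spread between libraries. The median absolute log2 ratio between the 2 libraries of a sample was 0.233 over the members. Both GT libraries were below both CL libraries for 96 members at E-L35 in 2010 (background 16.4% of the range), 112 at E-L35 in 2011 (23.4%), 68 at E-L38 in 2010 (26.5%) and 94 at E-L38 in 2011 (37%). In all 4 sets of libraries this held for 30 members (background 1.22%). The rule used the means of these libraries, so nothing is read from the counts. Libraries of XM_002273860.1 at E-L38 in 2010 show the spread at low levels, with 3.08 and 0.213 RPKM in GT and 18.5 and 0.758 RPKM in CL. A wide spread was not limited to low levels. The GT libraries of E-L38 in 2010 had 157.8 and 12.1 RPKM for XM_002265766.2 and 39.1 and 2.33 RPKM for XM_002277916.2. For XM_002277968.1 they were close, at 33.5 and 34.8 RPKM. In XM_002272365.2 they had 62.2 and 25.4 RPKM, beside 59.0 and 55.05 RPKM in the CL libraries. In XM_002271651.2 they had 149 and 74.9 RPKM, beside 105 and 140 RPKM in CL. One GT library thus lay above both CL libraries in these members, and the ratio of the pair rests on the other. How many members share this was not counted.

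The course over the stages, averaged over the regions, was not used by the rule, and it was tested. It is not independent of the rule, since over the range the median mean ratio was -0.11 in falling and 0.12 in rising transcripts. The rule could thus take falling transcripts more readily, and the part of this in the counts below was not tested. The slope is the log2 change per step from E-L31 to E-L35, E-L36 and E-L38, fitted to counts with edgeR's quasi-likelihood test and called at a Benjamini-Hochberg adjusted p of 0.05 or less over 19026 transcripts. With n = 2 per stage and region the p-values measure the spread between vintages. The slope fell for 77 members (59.2%) and rose for 4 (3.08%), beside 26.7% and 23.1% of all transcripts tested. The median slope was -0.33 over the members and 0.00 over all tested. On RPKM, tested with limma, 98 members fell and 3 rose beside 42.5% and 9.27% of all tested, and the median slope of all tested was then -0.11. Members were highest on average at E-L31 in 108 cases (83.1%, against 60.3% of the range) and at E-L38 in 3 (2.31%, against 22.4%).

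**Figure D5:**
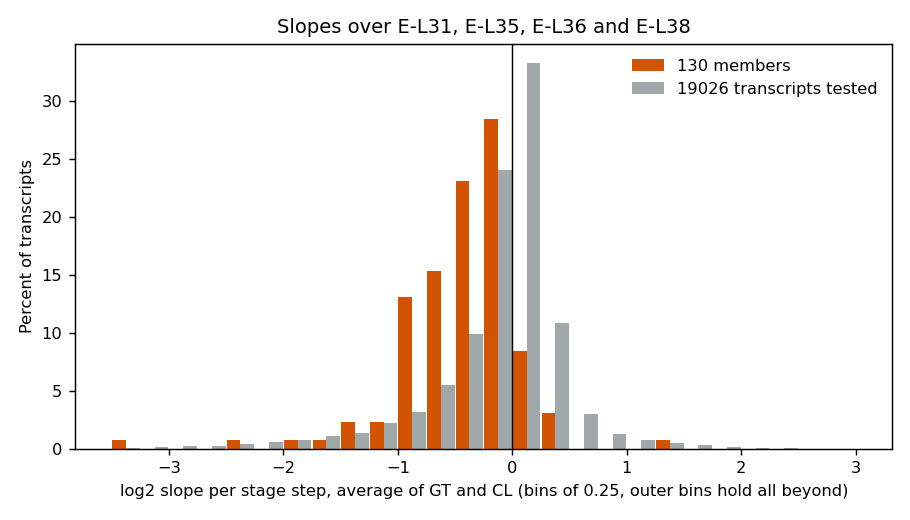
Percent of the 130 members (left bars) and of the 19026 transcripts tested (right bars) by log2 slope per stage step, averaged over GT and CL. Members lie mostly below 0, with a median of -0.33, and the tested transcripts are centred at 0.00.

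Among the 77 falling members the slope had a median of -0.58 and ran from -3.26 to -0.15, and it was -1 or less for 10. The steepest was that of XM_002280930.2 (-3.26, SE 1.03, adjusted p = 0.0217), which rests on the E-L31 samples of 2011. Without the GT sample of E-L31 in 2011 its slope was -1.03 and was not called, nor was it called without the GT sample of E-L35 in 2010 or with limma. XM_002263681.2 (LOC100266449) had 11.7 and 1.42 RPKM in green GT berries (E-L31) and 0.0344 and 0.111 at harvest (E-L38), against 28.0 and 40.2 and then 0.116 and 0.136 RPKM in CL, with a slope of -2.34 (SE 0.25, adjusted p = 8.32e-05). It was near 0 in both regions at harvest, where ratios on the RPKM + 1 scale stay close to 0. XM_002272695.1 (LOC100251777) had 6.29 and 6.31 RPKM in green GT berries (E-L31) and 0.112 and 0 at harvest (E-L38), against 13.1 and 13.6 and then 0.508 and 0.125 RPKM in CL. Its slope was -1.95 (SE 0.194, adjusted p = 7.19e-05).

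Of the described members, XM_002280995.1 (slope -0.89, SE 0.201, adjusted p = 0.0041) and XM_002268554.2 (-0.63, SE 0.091, adjusted p = 0.00033) fell, in edgeR's test. XM_002272428.2 had a slope of -0.32 (adjusted p = 0.0572) and XM_002272365.2 one of -0.05 (adjusted p = 0.791), and neither passed. Of the 258 tested transcription factors in the study's list 156 fell and 15 rose, beside 26.7% and 23.1% of all transcripts tested. The study drew up that list by correlation with selected genes on these samples. The steady members XM_002263141.2 (-0.39), XM_002262882.1 (-0.69) and XM_002263635.1 (-0.24) fell as well, with adjusted p of 0.000475, 0.000175 and 0.00446, while XM_002268981.2 did not pass (-0.06, adjusted p = 0.261). Among the 28 members with a mean ratio of -1 or less, 12 fell and 2 rose, beside the same 26.7% and 23.1% of all tested. The 8 with the most negative ratios included no falling member. Both subsets are small and were chosen by the ratio, so nothing is read from these counts.

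The 4 rising members moved opposite to the 77 that fell. XM_002282074.1 had 0.62 and 11.2 RPKM in GT (E-L31), then 13.8 and 8.44 (E-L35), 19.0 and 38.5 (E-L36) and 147 and 140 (E-L38). In CL it had 8.93 and 22.4 RPKM (E-L31), then 47.1 and 17.5 (E-L35), 136 and 58.1 (E-L36) and 162 and 151 (E-L38). Both regions thus reached close levels at harvest, and the widest pair was E-L36 in 2010. Its slope was 1.45 (SE 0.221, adjusted p = 0.000458), and it was 1.61 in GT and 1.29 in CL.

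XM_002277968.1 (LOC100246227) had 8.74 and 4.26 RPKM in green GT berries (E-L31) and 34.1 and 22.8 at harvest (E-L38), against 31.2 and 57.5 and then 36.7 and 33.8 RPKM in CL. Its slope was 0.49 over both regions (adjusted p = 0.00372), 0.93 in GT and 0.05 in CL. The slopes within a region rest on values that the rule used, and their difference was not tested. XM_002281215.2 (LOC100242743) had a slope of 0.44 (adjusted p = 0.000817), with 7.84, 17.7 and 32.2 RPKM in GT and 16.1, 28.4 and 34.8 RPKM in CL. XM_002285790.2 (LOC100257428), singled out as the remaining member that rose, had a slope of 0.31 (adjusted p = 0.031) and a mean log2 ratio of -0.63. In the E-L38 pairs the rising members had median log2 ratios of -0.12 in 2010 and -0.15 in 2011, and at E-L31 they had -1.38 and -0.87.

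The slopes were also fitted within each region, and their difference between the regions belongs to the contrast of the rule. The rule also used the values that each of these slopes was fitted to. The slopes within a region are thus not independent of it, and nothing is read from their counts. In GT 47 members fell (background 18.3%) and 3 rose (12.8%), and in CL 70 fell (17.9%) and 3 rose (15.2%). Of these, 43 fell (background 12%) and 2 rose (7.59%) in both regions, and the slopes had opposite signs in 17 members (20.9% of all tested). The median slope was -0.27 in GT and -0.42 in CL. The counts depended on single samples, mostly of the end stages, among the members and among all tested transcripts. In GT 21 members fell without the E-L31 sample of 2010 (11.4% of all tested), 31 without the E-L38 sample of 2010 (10.5%) and 17 without the E-L38 sample of 2011 (9.16%). In CL 43 fell without the E-L31 sample of 2011 (11.5%) and 39 without the E-L38 sample of 2011 (12.6%). The few rising members numbered 5 in GT without its E-L31 sample of 2011 (17.6% of all tested), 0 in CL without its E-L31 sample of 2010 (6.36%) and 1 in CL without its E-L35 sample of 2011 (11.1%).

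The 2 vintages were compared with stage and region held in the fit. edgeR called 0 members and 0 of all tested transcripts between 2011 and 2010 (background 0%), and the smallest adjusted p of a member was 0.355. At an unadjusted p under 0.05, 1 member was higher and 7 were lower in 2011, beside 736 and 613 of all tested. The median log2 ratio of 2011 over 2010 was -0.04 over the members. DESeq2 called 1 member and limma called 0. The member called by DESeq2 was XM_002269657.2 (log2 ratio 0.58, adjusted p = 0.00139), named here after its values were seen. It was higher in 2011 in 8 of 8 pairs of the same stage and region, for example at 89.8 RPKM in 2011 against 57.5 RPKM in 2010 in GT at E-L35.

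Reads that matched several transcripts had been divided by the authors in proportion to unique reads, so transcripts with near copies are uncertain. Under 50% of the reads were unique in 20 members (15.4%, against 11.9% of the range), and 84 members had at least 99.5% unique reads (64.6%, against 78.4%). For the 20, ratios from unique reads alone were mostly closer to 0, and most of the 20 no longer had all 8 pairs below 0. Unique reads gave lower RPKM, where the added 1 weighs more, and its part was not tested. XM_002263141.2, one of the steady members above, had -0.35 from unique reads with 7 pairs below 0. XM_002285725.2 kept its ratio (-1.89 from unique reads, -1.88 from all reads) and its 8 pairs below 0. XM_002273860.1 had -1.54 from unique reads with 7 pairs below 0. XM_003632175.1, with 1.69% unique reads, had -0.21 in place of -0.72, and XM_003635543.1 had no unique read at all, so all reads behind its mean ratio of -0.51 were shared.

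Counts were low for some members. In 26 members a GT sample had under 10 counts, in 10 a CL sample did, and in 7 both samples of a pair did. A GT sample was at 0 in 4 members and no CL sample was. The lowest sum over the 16 samples was 426 counts.

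Among the 98 members placed on the reference assembly, 4 pairs of genes lay within 5 genes of each other. LOC100264214 and LOC100242154 were adjacent, and their log2 levels over the 16 samples had r = 0.843. LOC100251084 (XM_002274113.1) and LOC100249360 (XM_003633012.1) were adjacent too, with r = 0.950 and mean log2 ratios of -0.71 and -0.84. With 4 genes between them, LOC100257078 (XM_002280693.2) and LOC100250236 (XM_002283931.2) had r = 0.922 and mean log2 ratios of -0.70 and -1.03. LOC100854587 (XM_003631668.1) and LOC100245618 (XM_002265766.2), with 1 gene between them, had r = 0.904. Adjacent copies can share reads, and 84.4% and 86.9% of the reads were unique in the second of these pairs. These values of r describe 16 samples that share the course over the stages.

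The limits of the rule divided close neighbours. Just inside the limit on the mean ratio stood XM_002271651.2 and XM_003633112.1, both at -0.50, and XM_002262711.2 at -0.51, and just outside it stood XM_002262656.2, XM_002269051.1 and XM_003634929.1, all at -0.49. XM_002262711.2 (LOC100251922) had its widest pairs after veraison, with 17.3 and 25.6 RPKM in green GT berries (E-L31) and 16.5 and 12.3 at harvest (E-L38), against 19.6 and 30.3 and then 28.3 and 41.1 RPKM in CL. In the same way, 124 transcripts of the range were below 0 in all 8 pairs and missed the limit. At the lower limit of abundance, XM_003634069.1 and XM_003634236.1 were inside at 2.10 and 2.21 RPKM, and XM_002266357.2 and XM_002276926.1 were outside at 1.99 and 1.87 RPKM.

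Scaling by TMM, which aligns the bulk of the transcripts, in place of the library total moved the median log2 ratio of the range by -0.24 and -0.19 at E-L35, by -0.25 and 0.18 at E-L36 (2010 and 2011) and by less than 0.1 in the other pairs. On that scale the members had a median mean ratio of -0.76, with a highest value of -0.50, and 109 of them kept all 8 pairs below 0. Of the other members, 19 had 7 pairs below 0, XM_002272365.2 had 6 and XM_002285279.2 had 5. Of the members given above with values, XM_002277968.1, XM_002285723.2, XM_003631716.1, XM_002263681.2 and XM_003633112.1 had 7 pairs below 0 on this scale, the exception lying at E-L36 in 2011 or at E-L38, and XM_002269657.2 and XM_003635543.1 had 7 as well, the exception lying at E-L31 in 2011.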

How the data were processed

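RNA-seq of 24 libraries from 16 berry samples was analysed. The authors trimmed 2 bases from each read end, used CLC Genomics Workbench to map reads to grape RefSeq mRNAs, and shared out multiply mapped reads by the unique reads of each transcript. The deposited files give, per library and transcript, counts of all assigned reads and of unique reads, not normalized, and RPKM, which the authors scaled to transcript length and library total. The CLC version is not given in the sources used here, and the authors' separate mapping to terpene synthase transcripts was not used here. Libraries had 78.6 to 86.2% unique reads.

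Members and lists were chosen with earlier results of these data known. RPKM was averaged over the libraries of a sample for the rule, and 1 was added before ratios. Counts were summed over libraries and fitted with edgeR 4.0.16 (R 4.3.3, TMM, glmQLFit, glmQLFTest) as 8 groups. The 19026 transcripts reaching 10 counts in 2 samples or more were tested, and p-values were adjusted by Benjamini-Hochberg. Slopes were contrasts over the 4 stages, and the vintage fit added a vintage term. DESeq2 1.42.0, limma 3.58.1 on log2(RPKM + 1) or log2(RPKM + 0.1), other scalings, filters, the Bonferroni adjustment and each sample left out were alternatives. The fits were tested on simulated data. Figures and tables used Python 3.11.15, pandas 2.3.3 and matplotlib 3.10.9.

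Samples were grouped by stage and region from the labels, and the replicate number is the vintage. Vintage differences in GT and CL were correlated at every stage (0.349, 0.238, 0.108 and 0.200 in stage order), so the vintage pairs the samples. Named were, by rule, the members with the 8 most negative mean ratios, the 5 highest means, the 4 smallest SDs, the 3 largest rises and 3 largest falls, those nearest the limits and those the study's tables describe. The rule's part on closest protein sequences could not be applied, since no sequence was used here.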

Additional observations from a re-analysis of the deposited data

How the results depend on the processing

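With n = 2 per stage and region, and 1 library per sample at E-L31 and E-L36, the slopes lean on the end stages, and leaving out a sample leaves its group with 1, which is then assumed to vary like the others. The set of 130 depended on its limits: it held 69 transcripts with 5 added to the RPKM, 79 with a mean RPKM of at least 10 and 224 without E-L31. With a vintage or a pair left out it held 130 to 759 transcripts (759 without 2010, 324 without 2011, 237 without the E-L31 pair of 2010, 211 without the E-L38 pair of 2011). It shared 108 members with the 170 found by TMM scaling, 101 with the 156 found by DESeq2 size factors and 100 with the 124 found from unique reads.

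Members falling over the stages numbered 65 to 81 with a sample left out, against 77, and those rising 3 to 6. In GT alone 17 to 54 fell and 3 to 5 rose, and in CL alone 39 to 75 fell and 0 to 3 rose. Calls among all tested transcripts also changed with the sample left out. Nothing about the members is read from these ranges. After the Bonferroni adjustment 8 members fell and 0 rose over both regions, beside 1.98% and 0.51% of all tested. After it 1 fell and 0 rose in GT (0.357% and 0.0158% of all tested), and 0 fell and 0 rose in CL (0.0841% and 0.0368%). With limma on log2(RPKM + 0.1), 73 members fell in GT, beside 31.4% of all tested, against 18.3% in edgeR's test. In CL 1 member rose, as with log2(RPKM + 1), beside 5.05% and 5.09% of all tested, against 15.2% in edgeR's test. With vintage as a replicate block 78 fell and 5 rose over both regions, so the paired fit moved no count by more than 1.5 times. DESeq2 called 1 member higher in 2011, against 0. Over all tested transcripts, 5088 fell and 4399 rose in the slope, against 8089 and 1763 with limma on log2(RPKM + 1) and 376 and 97 after the Bonferroni adjustment, and DESeq2 called 63 higher and 28 lower in 2011, against 0 and 0.

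Of 27 named slopes under 23 alternatives, 570 of 621 values kept direction and side of the threshold, 15 lost the call, 24 gained it and 12 changed sign. No called slope changed sign. With a sample left out, slopes ran from -1.08 to 0.0886 for XM_002273860.1, -0.477 to 0.0171 for XM_002285725.2, -0.279 to 0.0151 for XM_003632629.1 and -0.181 to 0.0377 for XM_002272365.2. With limma on log2(RPKM + 0.1) and log2(RPKM + 1), they were -0.0471 and -0.0441 for XM_003633112.1 and -0.0211 and -0.0188 for XM_002262711.2, against 0.10 and 0.12. The cause was not tested.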
